A study of Homo sapiens with 14 samples.

Results

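The genes described here are the clustered replication-dependent histone genes, read for regions bound by the progesterone receptor (PR) and by POLR3A, a catalytic subunit of RNA polymerase III, in T47D cells. They were chosen by name and place, as the protein-coding genes on chromosomes 1 and 6 of the RefSeq gene table (GRCh38.p14) whose symbol is H2AC, H2BC, H3C or H4C with a number, or H1-1 to H1-6. This gave 68 of 19821 protein-coding genes, namely 6 of family H1, 17 of H2A, 18 of H2B, 13 of H3 and 14 of H4. T47D is an oestrogen- and progesterone-receptor-positive breast cancer line, here grown in minimal Eagle's medium with serum and insulin. Treatment was with progesterone (P4), or with ethanol as its vehicle, and lasted 1 h before chromatin immunoprecipitation and sequencing. Of the 14 libraries, each of the 4 groups had 3, and each treatment had 1 input without antibody. What was deposited for the groups were 4 peak lists, PR vehicle, PR P4, POLR3A vehicle and POLR3A P4, so that the 3 replicates of a group shared a list. No difference between lists could therefore be set against a spread between replicates, and counts are given beside the same counts over all protein-coding genes, without a test.

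Replication-dependent histone genes supply the core histones H2A, H2B, H3 and H4 and the linker histone H1 that package newly copied DNA in S phase. They are short, lack introns in their main form, are transcribed by RNA polymerase II and end in a stem-loop in place of a poly(A) tail. In the genome they lie in clusters, many as H2A and H2B genes that start back to back. RNA polymerase III, by contrast, transcribes tRNA genes, many of which lie between the histone clusters on chromosome 6, and PR is a hormone-dependent transcription factor.

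The members fell into 5 clusters when a gap of over 500 kb started another. The largest, on chromosome 6 from 25726063 to 26285534, held 34 genes, and clusters of 5 genes (27132316 to 27147562) and 16 genes (27807479 to 27893891) followed on the same chromosome. On chromosome 1, 11 genes lay from 149782689 to 149887965, and a pair, H2AC25 and H2BC26, lay apart from 228457364 to 228458558. The median gene span was 494.5 bp, against 24482 bp over all protein-coding genes, and 60 of the 68 spanned at most 2 kb. The other 8 ran from 2224 bp (H2BC21) to 29682 bp (H2BC18), and some held or overlapped further members, such as H4C15, whose span holds H2AC19 and H3C15, so that these genes share regions. A gene counted as having a region when a region of the list overlapped, by at least 1 bp, the window from 1 kb before the gene to 1 kb past it. Because members are close together, their 68 windows merged into 38 separate stretches, and 1 region often counted for neighbours: 23 of the 49 PR vehicle regions at members, 33 of the 83 PR P4 regions, 28 of the 63 POLR3A vehicle regions and 35 of the 70 POLR3A P4 regions did so.

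Promoters are shown for the members on which the results turn. H1-3 had the strongest PR region among members in both PR lists, H4C8 the strongest POLR3A region in both POLR3A lists, and H2AC1 is the first member in genome order with no region in any list. H2AC19, chosen after its values were seen, stands for the duplicated stretch of chromosome 1. Each sequence is the 250 bases before the RefSeq start site (GRCh38.p14), written 5′ to 3′ along the gene's strand, with capitals for matches on either strand to the CCAAT box, to the TATA box TATAAA, to the octamer ATTTGCAT of H2A and H2B promoters and to the H1 box AAACACA. The windows are chr6:26234988-26235237 (minus strand) for H1-3, chr6:26285535-26285784 (minus) for H4C8, chr1:149850811-149851060 (plus) for H2AC19 and chr6:25726563-25726812 (minus) for H2AC1.
H1-3: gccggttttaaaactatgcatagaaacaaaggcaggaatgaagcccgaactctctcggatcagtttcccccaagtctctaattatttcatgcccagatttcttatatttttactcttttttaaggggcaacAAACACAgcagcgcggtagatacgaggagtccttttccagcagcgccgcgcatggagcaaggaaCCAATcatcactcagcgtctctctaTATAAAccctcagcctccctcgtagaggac
H4C8: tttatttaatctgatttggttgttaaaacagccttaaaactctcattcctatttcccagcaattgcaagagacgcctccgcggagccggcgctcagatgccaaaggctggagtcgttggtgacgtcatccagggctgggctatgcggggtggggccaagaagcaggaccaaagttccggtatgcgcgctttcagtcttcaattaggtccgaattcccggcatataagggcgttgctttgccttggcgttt
H2AC19: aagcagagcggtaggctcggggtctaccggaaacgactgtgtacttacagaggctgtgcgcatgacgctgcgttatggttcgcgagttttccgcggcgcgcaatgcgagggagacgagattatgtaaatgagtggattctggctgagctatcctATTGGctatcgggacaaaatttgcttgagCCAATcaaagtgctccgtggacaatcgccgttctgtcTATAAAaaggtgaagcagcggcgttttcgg
H2AC1: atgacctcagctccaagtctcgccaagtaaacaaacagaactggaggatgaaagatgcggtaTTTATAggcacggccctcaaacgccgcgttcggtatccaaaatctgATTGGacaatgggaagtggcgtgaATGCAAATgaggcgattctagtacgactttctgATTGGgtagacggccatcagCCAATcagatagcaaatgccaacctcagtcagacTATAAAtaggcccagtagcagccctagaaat

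The first question was at how many histone genes POLR3A was found without hormone. POLR3A regions lay at 53 of the 68 members under vehicle, 77.9%, and at 54 under P4, 79.4%. Over all protein-coding genes the same rule called 44.2% under vehicle and 49.1% under P4. The contrast was wider against genes of similar size: of 1152 other protein-coding genes with a span of at most 2 kb, 15.6% and 16.0% had a POLR3A region. With the window set around the ends of each gene in place of its span, which lessens the effect of gene length, 77.9% of members had POLR3A under each treatment, against 30.8% and 33.6% of protein-coding genes. Of the 72 other protein-coding genes inside the clusters or within 500 kb of them, 55.6% and 58.3% had one, a set chosen after the data had been seen. The share among histone genes was thus above that of all protein-coding genes, of other genes of at most 2 kb and of their neighbours, in both POLR3A lists.

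**Figure D1:**
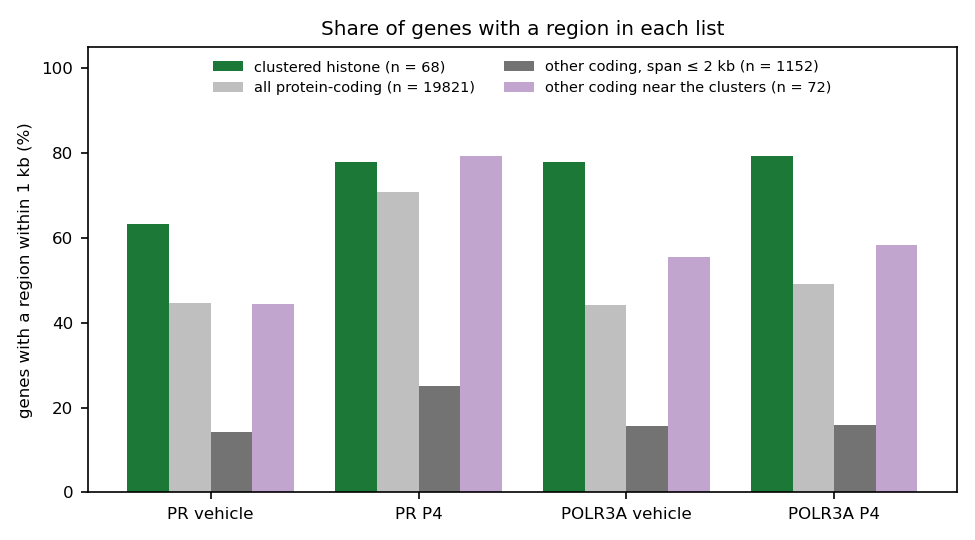
Percentage of genes with a region within 1 kb of the gene span (y axis) in each of the 4 peak lists (x axis), for the 68 histone genes, all 19821 protein-coding genes, the 1152 other protein-coding genes of at most 2 kb and the 72 other protein-coding genes near the clusters. For POLR3A the histone bars, 77.9% and 79.4%, are the highest of their group, while under PR P4 the neighbouring genes reach 79.2% against 77.9%.

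The POLR3A regions at histone genes were also strong for their lists. Strength is given as the authors' −log10 q of a region, which ranks regions within a list and does not measure a change between lists, beside the authors' fold enrichment over background. The median −log10 q of the strongest region per gene was 14.1 under vehicle and 11.1 under P4, against 4.19 and 4.26 for protein-coding genes with a POLR3A region. Taken region by region, the median lay at percentile 89.2 of the vehicle list and 86.7 of the P4 list, and 29 of 63 and 28 of 70 regions belonged to its top 10%. When a −log10 q of 10 or more was required, 32 members under vehicle (47.1%) and 29 under P4 (42.6%) still had a POLR3A region, while 3.26% and 2.86% of protein-coding genes did. The regions were broad as well, with median widths of 493 and 545 bp against 280 and 276 bp in the full lists.

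H4C8, an H4 gene at the end of the largest cluster (chromosome 6, 26285126 to 26285534), stood far above the others, with a POLR3A −log10 q of 555.5 (vehicle) and 506.5 (P4) and folds of 85.8 and 64.2. That region covered the neighbouring initiator methionine tRNA gene TRX-CAT1-2 (26286526 to 26286597), which lies 992 bp from H4C8. A separate and much weaker POLR3A region covered the promoter of H4C8 itself, with 12.4 under vehicle and 10.8 under P4. Without H4C8, the vehicle values of the other members spanned 2.12 to 36.0, and their P4 values 2.00 to 34.1.

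The next strongest POLR3A regions lay on chromosome 1. H4C14, an H4 gene at 149832657 to 149833052, had 36.0 under vehicle and 34.1 under P4, with folds of 11.1 and 9.28. The H2A gene H2AC19 had 28.6 and 33.8. H4C15, whose span holds H2AC19, had 35.2 under vehicle in a region over its own start site. Its strongest P4 region was that of H2AC19, and the P4 region over the H4C15 start site had 19.9. H2AC18 had 27.2 and 26.0, and H2BC21 and H2AC20, which start back to back, shared a region of 26.8 and 26.4. All 11 genes of that cluster had regions in all 4 lists. Which copy the reads came from is uncertain there, and how reads with several matches were placed is not given in the sources used here. The promoter windows of H4C14 and H4C15 were identical over 300 bases, those of H2AC18 and H2AC19 over 299 bases and those of H3C14 and H3C15 over 296 bases. On chromosome 6, H4C12 was strongest after H4C8 under vehicle, with 26.8, and had 13.5 under P4, and its promoter was 98.3% identical to that of H4C11 (11.7 and 3.34).

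**Figure D2:**
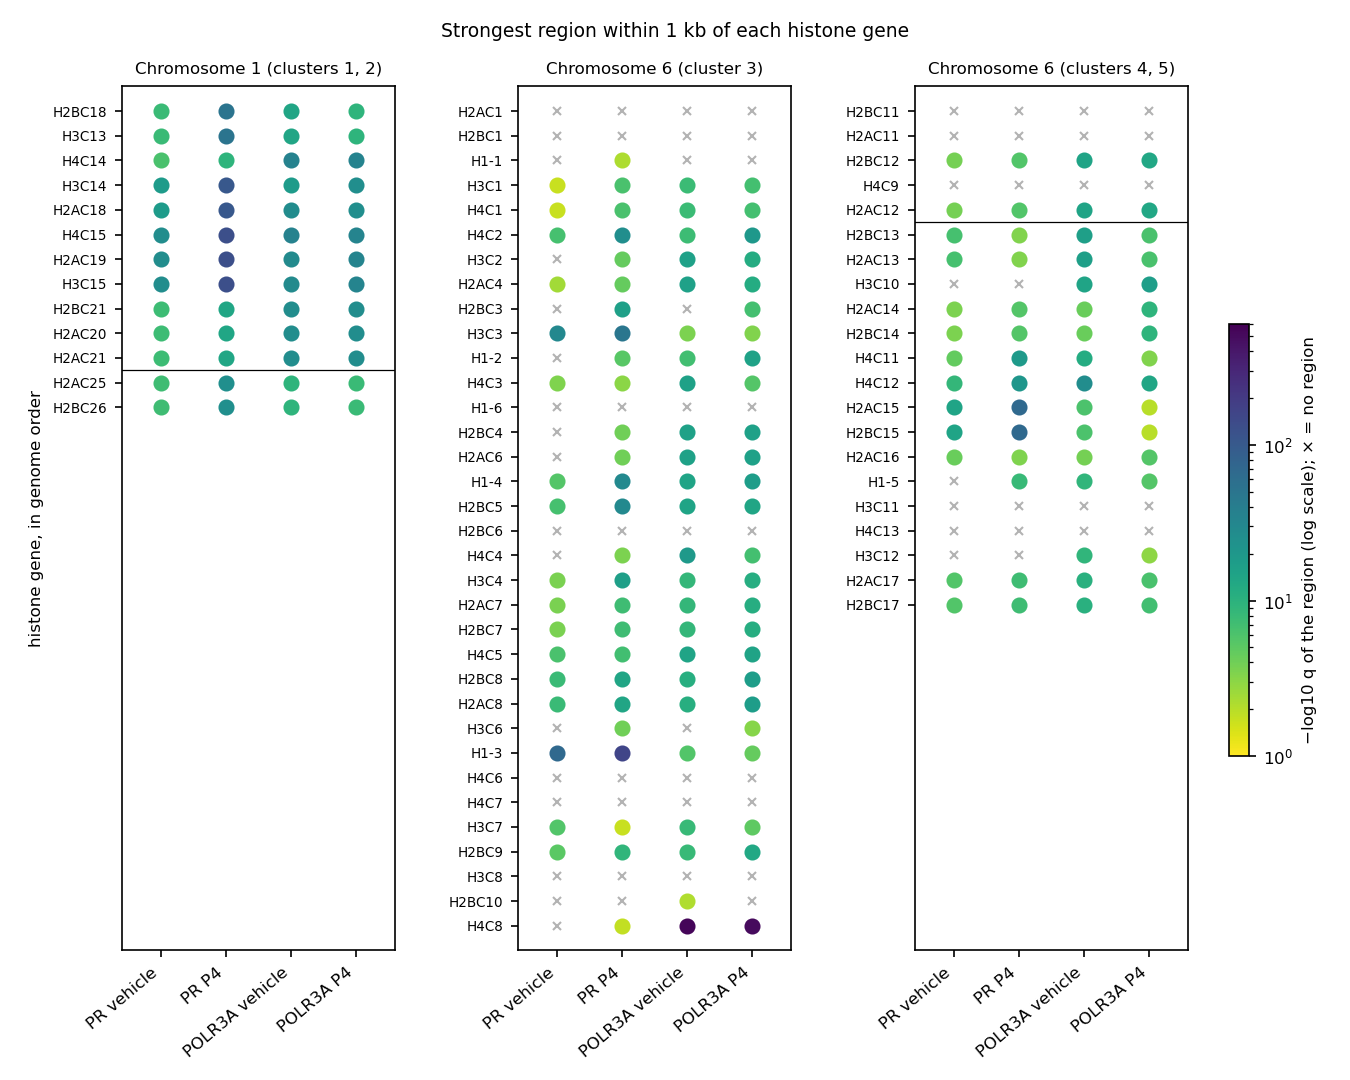
The −log10 q of the strongest region within 1 kb of each of the 68 histone genes (rows, in genome order; lines separate clusters) in each list (columns), by colour on a log scale, with a cross where the list has no region. The 11 genes of cluster 1 and the pair of cluster 2 have regions in all 4 lists, 12 genes on chromosome 6 have none, and H4C8 has the darkest POLR3A points, at 555.5 and 506.5.

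POLR3A summits sat just inside the genes. For the 63 members in the promoter table, the summit nearest to a start site was taken within 1 kb of it (H4C1, H4C3, H2AC12, H3C11 and H3C12 are not in that table). Under vehicle 48 members had such a summit, at a median of 101.5 bp downstream of the start site, and 36 of them lay between the start site and 250 bp downstream. Under P4 the median over 49 members was 103 bp downstream, with 34 in that stretch. Within 250 bp on either side lay 75% and 69.4% of the members' summits, against 57.4% and 46.6% for all protein-coding genes with a summit within 1 kb, whose summits were divided about evenly between the sides (52.2% and 47.1% downstream). The median under vehicle was 92 bp downstream for H2A genes, 129.5 bp for H2B, 103 bp for H3, 99.5 bp for H4 and 122.5 bp for H1. A POLR3A region overlapped the promoter window, from 250 bases before to 50 after the start, at 45 of 63 members under vehicle (71.4%) and 43 under P4 (68.3%), where 20.4% and 19% of 15812 protein-coding genes had one.

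**Figure D3:**
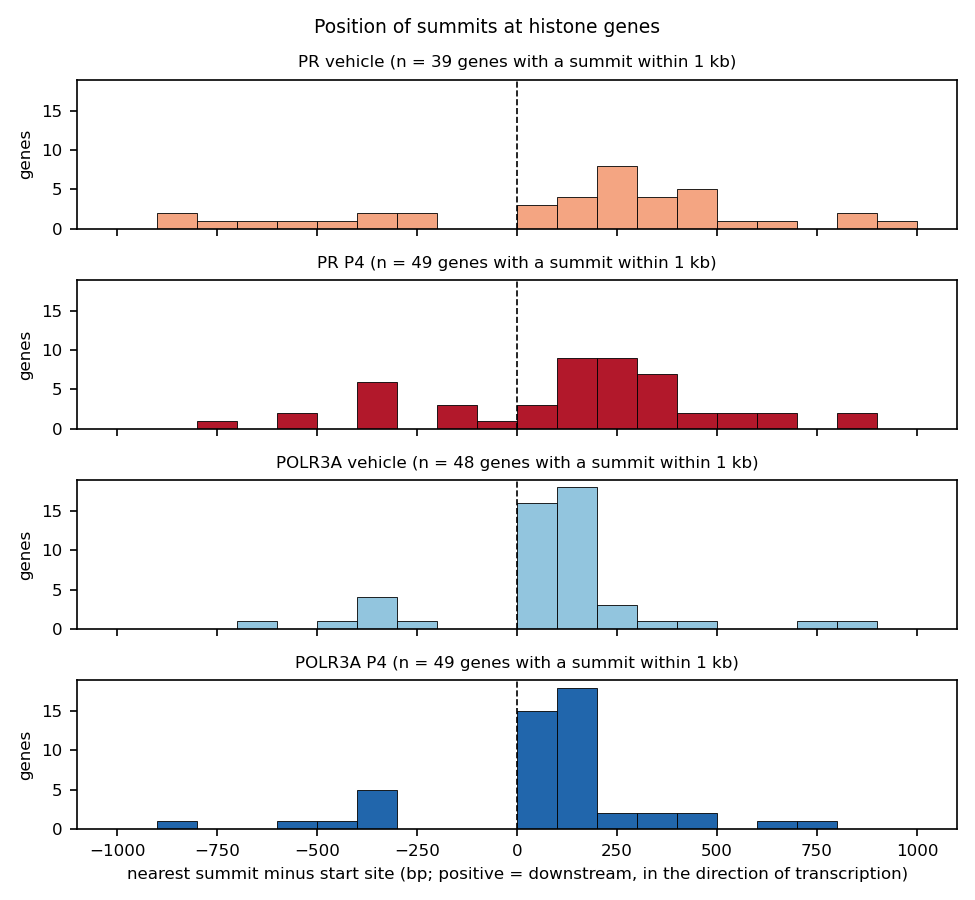
Number of histone genes (y axis) by the distance from the start site to the nearest summit within 1 kb (x axis, bp, positive downstream) in each list, in bins of 100 bp. POLR3A summits cluster just downstream of the start, with medians of 101.5 and 103 bp, while PR summits spread wider, with medians of 281 and 196 bp.

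PR regions were found at many of the same genes and lay differently. PR regions lay at 43 of 68 members under vehicle, 63.2%, and at 53 under P4, 77.9%, where 44.7% and 70.8% of protein-coding genes had one. By this window the P4 share was close to that of all protein-coding genes and to the 79.2% of the neighbouring genes. It was above the 25.1% of other genes of at most 2 kb (14.3% under vehicle). With windows around the gene ends, PR was at 63.2% and 77.9% of members, against 23.9% and 50.2% of protein-coding genes. The closeness to all protein-coding genes under P4 thus depended on the window. In strength the PR regions at members were ordinary for their lists, with median percentiles of 45.3 and 47.8, and 2 of 49 and 7 of 83 were in the top 10%. At a −log10 q of 10 or more, PR was at 9 members under vehicle (13.2%) and 25 under P4 (36.8%). Among all protein-coding genes, with their longer spans, the shares were 18.8% and 39.6%. The histone share was lower there, but this cutoff was not read over gene ends or short genes alone. The nearest PR summit was a median of 344 bp from the start site under vehicle (39 members) and 278 bp under P4 (49 members). For POLR3A the medians were 137 and 133 bp, and for PR over all protein-coding genes 397 and 314 bp. Of the members' PR summits, 74.4% and 73.5% lay downstream of the start site, against 44.4% and 46.3% for protein-coding genes. PR regions overlapped the promoter window of 13 of 63 members under vehicle (20.6%) and 28 under P4 (44.4%), where 9.06% and 27.3% of protein-coding genes had one.

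H1-3, which encodes the linker histone H1.3 (chromosome 6, 26234212 to 26234987), had the strongest PR regions. Under vehicle a region with a −log10 q of 68.9 and a fold of 17.5 lay with its summit 1151 bp downstream of the start site, past the gene's end, and a region of 58.8 covered the promoter. Under P4 a single region of 2114 bp, with a −log10 q of 160.2 and a fold of 24.1, spanned the gene, its summit 11 bp from the start site. Its POLR3A values, 5.63 and 4.58, were below the members' medians and above those of protein-coding genes. The H3 gene H3C3 (26045384 to 26045869) had a similar contrast, with PR values of 30.2 and 48.9 and summits 204 and 180 bp upstream of its start, and POLR3A values of 3.50 and 3.34. In the duplicated stretch of chromosome 1, a PR region over H2AC19 had 26.5 under vehicle and 128.0 under P4. Its counterpart over H2AC18 had 18.2 and 104.4. Both regions lay within 1 kb of an H3 gene, H3C15 and H3C14 in turn, without reaching it. Their P4 summits were 805 bp downstream of the H2AC19 start and 812 bp downstream of the H2AC18 start. H2AC15 and H2BC15, a back-to-back pair, shared PR regions of 14.3 and 69.6 beside POLR3A regions of 6.17 and 2.00.

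The next question was how P4 changed which histone genes were in the lists. All 43 members with PR under vehicle also had it under P4, and 10 had it under P4 alone, or 14.7% of members, against 27.3% of all protein-coding genes. As a share of the genes without PR under vehicle, this was 40% of 25 members and 49.4% of 10963 protein-coding genes. Among other genes of at most 2 kb it was 14.2% of 987, and among the neighbouring genes 62.5% of 40. None had PR under vehicle alone, against 1.23% of protein-coding genes. The 10 were H2BC3 (−log10 q 16.2), H1-5 (8.14), H1-2 (5.25), H3C2 (4.59), H2BC4 and H2AC6 (a shared 4.05), H3C6 (3.96), H4C4 (3.56), H1-1 (2.19) and H4C8 (1.82), all on chromosome 6, and 3 of the 6 linker histone genes are among them. Of these 10, 7 were below the list's median of 4.87, and H2BC3 stood highest. The PR P4 list held 111515 regions against 38933 under vehicle, and with both cut to the same length by −log10 q the order turned, with PR at 43 members under vehicle and 28 under P4, 2 gained and 17 lost, while protein-coding genes stood at 44.7% and 45.8%. At a fixed −log10 q the order stayed, with 30 and 40 members at 5 or more and 9 and 25 at 10 or more. The members gained rose to 16 at 10 or more, to 18 with no flank and to 17 over the promoter window. P4 and the length of the list cannot be told apart in these counts.

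POLR3A occurrence was nearly the same under both treatments, with 52 members in both lists, 2 under P4 alone and 1 under vehicle alone. Over all protein-coding genes, 13.4% had POLR3A under P4 alone and 8.58% under vehicle alone. The 2 members were H2BC3 (6.75) and H3C6 (3.17), both of which also had PR under P4 alone, and the exception under vehicle was H2BC10 (2.12). With the POLR3A lists cut to equal length, the counts were 53 and 52.

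PR and POLR3A shared most of these genes. Under vehicle, all 43 members with PR also had POLR3A, or 63.2% of members, against 30.7% of protein-coding genes, and PR was at 0 of the 15 members without POLR3A, where PR was at 25.1% of protein-coding genes without POLR3A and at 5.56% of those of at most 2 kb. Of members with POLR3A, 81.1% had PR under vehicle and 96.3% under P4, against 69.4% and 94.6% of protein-coding genes with POLR3A. Under P4, 52 members had both, 76.5%, against 46.4%, and the member with PR alone was H1-1. Regions of all 4 lists occurred at the same 43 members, against 26.8% of protein-coding genes. The windows of neighbours overlap, and the wide window does not require the regions to touch. Region by region, 36 of 63 POLR3A vehicle regions at members overlapped a PR vehicle region, 57.1% (95% Wilson interval 44.9 to 68.6, counting error only), where 32.3% of all POLR3A vehicle regions did. Under P4 it was 51 of 70, 72.9% (61.5 to 81.9), against 50.5% of the list. With a reciprocal overlap of at least 50% the shares were 28.6% and 37.1%, against 18.8% and 26.1% of the lists. Among regions of both antibodies with a −log10 q of 5 or more, the difference from the lists was gone, with 37.0% and 59.5% at members against 38.9% and 58.3% overall.

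**Figure D4:**
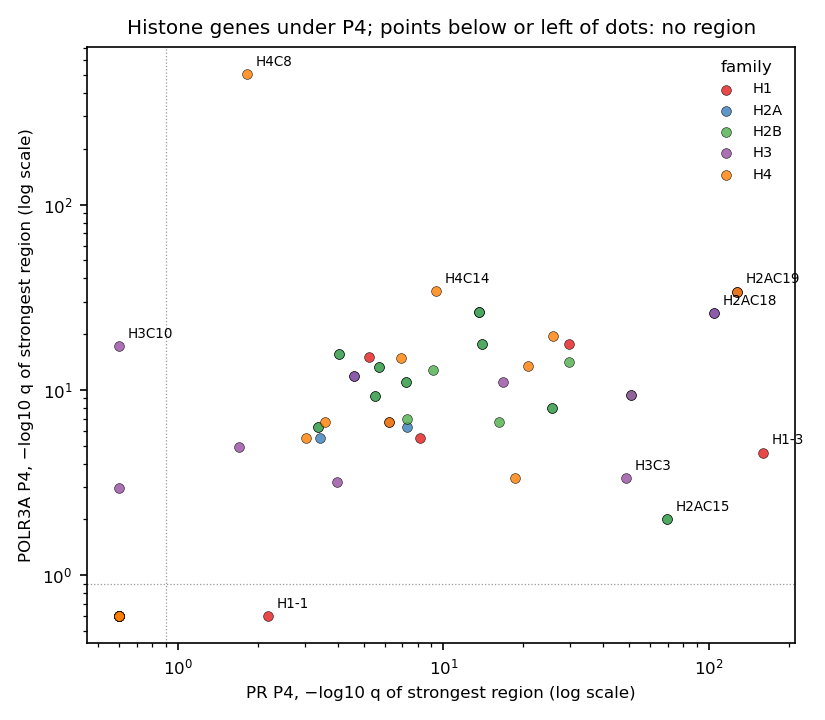
The −log10 q of the strongest PR P4 region (x axis, log scale) and POLR3A P4 region (y axis, log scale) at each histone gene, coloured by family; points left of or below the dotted lines have no region in that list. H1-3 lies at the far right with 160.2 and 4.58, H4C8 at the top with 1.82 and 506.5, and the genes of the duplicated stretch of chromosome 1, such as H2AC19 with 128.0 and 33.8, are high on both axes.

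Counts by family are given without a test. POLR3A lay under vehicle at 4 of 6 H1 genes, 15 of 17 H2A, 14 of 18 H2B, 10 of 13 H3 and 10 of 14 H4 genes, and under P4 at 4, 15, 14, 11 and 10. PR lay under vehicle at 2 of the H1 genes, H1-3 and H1-4, and at 14 H2A, 12 H2B, 7 H3 and 8 H4 genes, and under P4 at 5, 15, 14, 9 and 10. H4 genes had the highest median POLR3A −log10 q under vehicle, 17.3, and H1 genes the lowest, 8.03. Under P4 the H4 median, 14.2, was again the highest, and the lowest was that of H3 genes, 9.37, with H1 genes at 10.3. The H2A medians came next to those of H4, with 14.2 under vehicle and 11.9 under P4. Both H4 medians count H4C8 by the region over TRX-CAT1-2. With the weaker region at the H4C8 promoter, 12.4 and 10.8, they would be lower, and the order of families was not tested that way.

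H2AC12, which lies beside H2BC12, is not in the promoter table and could not be paired. Of the other H2A and H2B genes, 11 pairs started back to back, with 194 to 248 bp between their start sites. A POLR3A region reached into that stretch at 8 pairs under vehicle and at 8 under P4. PR regions reached it at 0 pairs under vehicle and at 3 under P4, H2AC25 with H2BC26 (−log10 q 3.14), H2AC7 with H2BC7 (6.13) and H2AC14 with H2BC14 (5.53). In these lists the stretches held POLR3A regions more often than PR regions, while PR regions lay over the genes or beyond. The same count was not made for other back-to-back genes, so these counts have no background beside them.

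The tRNA genes of chromosome 6 lie among these clusters. The 55 members there were between 992 bp and 560.0 kb from the nearest tRNA gene, with a median of 45.7 kb, and 28 were within 50 kb of one. TRX-CAT1-2, beside H4C8, was the single tRNA gene within 5 kb of a member. Next were TRX-CAT1-7 and TRG-GCC2-3, 8602 and 9017 bp from H2BC17, which shared a POLR3A region of 525.2 under vehicle and 583.7 under P4. Of the 22 tRNA genes within 50 kb of a member, 21 had POLR3A under vehicle, with a median −log10 q of 334.2, and 22 had it under P4, with a median of 277.5, against 14.1 and 11.1 at histone genes. Among members within 50 kb of a tRNA gene, 20 of 28 had POLR3A under vehicle with a median of 9.65, and among those farther away 20 of 27 with a median of 10.8. Under P4 the counts were 19 of 28 and 22 of 27, with medians of 6.34 and 11.5. Of the POLR3A regions at members, 1 in each list overlapped a tRNA gene or the 100 bp beside it, and leaving it out changed none of the counts of members with a region.

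**Figure D5:**
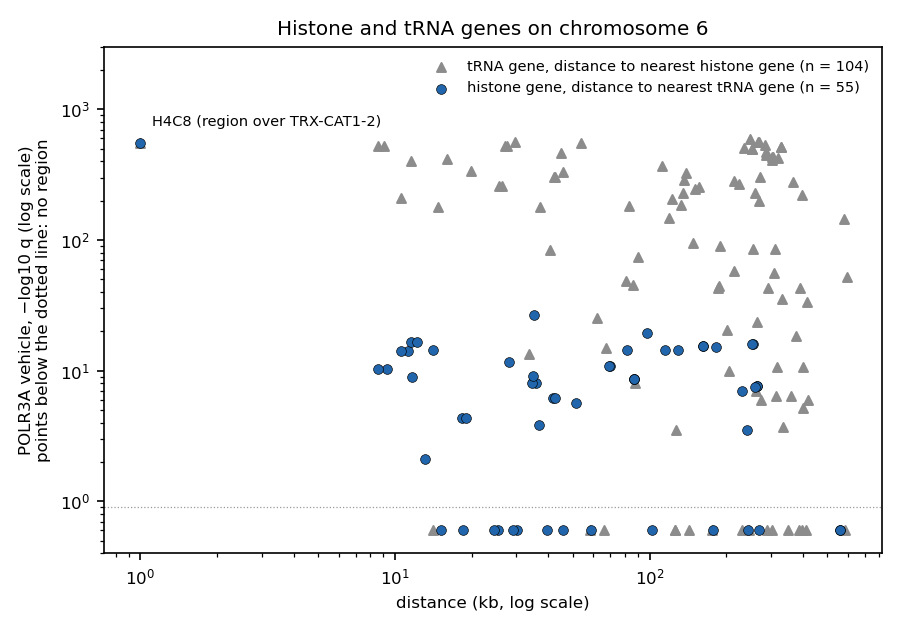
POLR3A vehicle −log10 q (y axis, log scale) by distance in kb (x axis, log scale) for the 55 histone genes of chromosome 6, by distance to the nearest tRNA gene, and for the 104 tRNA genes within 600 kb of a histone gene, by distance to it; points below the dotted line have no region. Histone genes other than H4C8 stay at or below 26.8 at every distance, while 52 of the 88 tRNA genes with a region lie above 100.

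The 12 members with no region in any list, 17.6% against 24.3% of protein-coding genes and 69.9% of other genes of at most 2 kb, were all on chromosome 6. They were H2AC1, H2BC1, H1-6, H2BC6, H4C6, H4C7, H3C8, H2BC11, H2AC11, H4C9, H3C11 and H4C13. H2AC1 and H2BC1, a back-to-back pair far from the other genes of its cluster, and H1-6 encode testis histones. H3C10 (POLR3A 14.5 and 17.2) and H3C12 (9.02 and 2.97) were bound by POLR3A in both of its lists and were in neither PR list.

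A list of genes that act on histone gene expression was chosen by function. Of 18, which included NPAT, the cyclin E-CDK2 substrate that activates histone genes, and SLBP, which binds the histone mRNA stem-loop, 11 had PR and 11 POLR3A under vehicle (61.1% each), and 17 and 14 under P4 (94.4% and 77.8%). The same counts over all protein-coding genes were 44.7% and 44.2% under vehicle and 70.8% and 49.1% under P4. The median POLR3A −log10 q of those with a region was 3.66 under vehicle and 4.16 under P4, near the 4.19 and 4.26 of protein-coding genes. NPAT had 3.56 and 5.58, SLBP 2.59 and 3.25, and CDK2 10.1 and 4.50. CASP8AP2 had no region. A further list held 13 histone genes outside the clusters, mostly variants that are expressed outside S phase or have special roles. Of these, 5 had PR and 8 POLR3A under vehicle (38.5% and 61.5%), and 11 and 7 under P4 (84.6% and 53.8%). H2AX, the variant phosphorylated at DNA breaks, reached 22.7 and 17.7 for POLR3A, and 14.4 and 55.2 for PR. H3-3B, 1 of the genes for histone H3.3, had PR values of 98.2 and 181.8, above the member maximum in both PR lists, and POLR3A values of 7.77 and 4.41. H4C16, an H4 gene on chromosome 12 outside the clusters, had a POLR3A region of 3.72 under P4 and no other.

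The promoters of the 63 members in the table, read over the 250 bases before and 50 after the start on both strands, carried the elements known for histone genes. The CCAAT box was in 54, 85.7%, against 42.1% of 15812 protein-coding promoters, and the TATA box in 42, 66.7%, against 12.4%. The octamer ATTTGCAT was in 26, of which 14 were H2B and 11 H2A genes, 41.3% against 2.22%, and AAACACA was in all 6 H1 promoters and in 9 members, 14.3% against 5.84%. GGTTCGA, the core of the B box of tRNA genes, was in 0 members and 1.27% of promoters. The progesterone response element, AGAACA and TGTTCT with any 3 bases between, was in 0 promoters of either set. At such low shares neither of these 2 motifs can set the members apart. The window also ends short of the median POLR3A summits, 101.5 and 103 bp downstream of the start, so the sequence there was not read. The CCAAT box was in 34 of the 40 members with regions in all 4 lists and in 10 of the 11 with none, and the TATA box in 27 and 7. Matches had to be exact. As the sequences above show, H4C8 has no match to CCAAT or TATAAA, though it holds the similar tataag close to the start site. H2AC1, with no region in any list, has the CCAAT box, the TATA box and the octamer.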

How the data were processed

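Per the submitters' processing notes, cutadapt, Bowtie2, MACS2 and the build hg38 were used; their roles, versions and settings, and how replicates and inputs entered each list, are not given in the sources used here. Each deposited peak list gives a region, its summit, the authors' fold enrichment (a ratio), −log10 p-value and −log10 q-value, and a score, 10 times the latter cut to a whole number. The deposited score and p-value entered no result. Depth is unknown, since no counts were given with the lists.

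Regions on chromosomes 1 to 22 and X were read against RefSeq genes (GRCh38.p14). On each chromosome, genes listed after the first backward step in start position were dropped, which left 58419 of 59098. Overlaps needed 1 bp. Promoters and start sites came from the RefSeq promoter table, where 63 of 68 members matched. Values are of the region with the highest −log10 q at a gene. Values in full are given for the 4 strongest members of each list, those in all 4 lists (6 by POLR3A vehicle), those under a single treatment and tRNA genes within 5 kb. Members, lists and settings were chosen with earlier results of these data known. Overlap counts equalled those of bedtools 2.31.1 in 4 of 4 lists, and 68 of 68 windows gave the known answer when tested on simulated data. Python 3.11.15 with pandas 2.3.3 was used. Shares of regions carry 95% Wilson intervals.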

Additional observations from a re-analysis of the deposited data

How the results depend on the processing

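No paired analysis was possible because the replicates of a group share 1 list and the lists carry no value per replicate, and for the same reason no replicate could be left out. Each count over members was compared with its value under the other settings, and counts not given here stayed within 1.5 times. At a −log10 q of at least 10, members with PR were 9 and 25, with POLR3A 32 and 29, with both 5 and 15 (vehicle and P4), PR was gained at 16, and POLR3A was gained at 6 and lost at 9. At 5 or more, PR was lost at 3, and POLR3A was gained at 4 and lost at 6. With members in overlapping windows counted as 1 locus, the counts were 24, 30, 29 and 29 of 38 loci for PR vehicle, PR P4, POLR3A vehicle and POLR3A P4, with both at 24 and 29, PR gained at 6 and POLR3A gained at 1. Over the promoter window, a setting added after the data had been seen, PR was at 13 and 28, both at 11 and 24, PR was gained at 17 and lost at 2, and POLR3A was gained at 1 and lost at 3. With lists of equal length, PR P4 was at 28, both under P4 at 26, PR was gained at 2 and lost at 17, and POLR3A was lost at 3. With no flank PR was gained at 18 and lost at 2, and POLR3A was lost at 2, as it was with 5 kb. Without the 8 members of over 2 kb, also added later, POLR3A was gained at 1. Shares of POLR3A regions with PR were 28.6% and 37.1% at a reciprocal overlap of 50%, and 37.0% and 59.5% at a −log10 q of at least 5 in both lists, where the full lists had 38.9% and 58.3%. The locus counts are out of 38 in place of 68, so they cannot be set directly against the counts of members. The cause of the shifts was not tested beyond what each setting removes. Using summits in place of regions, leaving out regions at tRNA genes or leaving out the 4 members whose whole promoter entry equals another's (H4C14, H4C15, H2AC7 and H3C4) moved no count by over 1.5 times. H2AC18, H2AC19, H3C14 and H3C15, which match over slightly fewer bases, were kept there. H2AC7 and H3C4 are not copies but share a start site (26199293, minus strand). That site counts for both genes in the summit, promoter and family results. Because depth is unknown, a missing region does not show that a factor was absent, and at near-identical members the choice of gene is uncertain.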

Other observations

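Histone pseudogenes were counted as the genes were, after the data had been seen. Of 14 histone pseudogenes on chromosomes 1 and 6, 9 had POLR3A under vehicle and 7 under P4, but the windows of 9 overlapped the window of a member. Of the 5 whose windows lay apart from every member, 1 had POLR3A under each treatment, and PR was at 0 under vehicle and 1 under P4. The POLR3A gene of the 5 was H3C9P, with a −log10 q of 179.3 and 242.8. In both lists that region covered the tRNA gene TRR-TCG2-1, 526 bp away, and did not reach H3C9P itself. The PR gene was H2BC27P on chromosome 1, with 1.77. The other 3, H2BC2P, H2AC2P and H2AC3P, had no region in any list.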
